A study of Rattus norvegicus with 10 samples.

Results

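The Notch receptors, their ligands and 2 target genes were followed in carcinogen-induced rat mammary tumors before and after adriamycin. The 10 genes were Notch1 to Notch4, Jag1, Jag2, Dll1, Dll4, Hes1 and Hey1. All probe sets annotated with 1 of these symbols alone were taken, which gave 14 of the 31099 probe sets on the array, for 10 of the 14217 genes that have a probe set of their own. Notch4 had 3 probe sets, Notch1 and Dll4 had 2 each, and the other 7 genes had 1 each.

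Female Sprague-Dawley rats had received DMBA, a carcinogen that induces mammary tumors, as 1 oral dose of 100 mg/kg. The basal group held 5 needle biopsies of untreated tumors, taken at 12 weeks of age when the tumor had reached 2 cm3. The final group held 5 samples of the same tumors at 19 weeks, in the seventh week after biopsy, after intravenous adriamycin (doxorubicin, an anthracycline that inhibits topoisomerase II) in 6 weekly doses of 1 mg/kg each. The sample labels describe the final sample as total tumor and the design text as a needle sample. The tumor codes 09I1, 11D2, 12I1, 29I1 and 43D1 pair the samples, and whether each tumor came from its own rat is not given in the sources used here. Treatment, age and the kind of sample named in the labels all separate the same groups and cannot be told apart.

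Notch receptors are single-pass membrane proteins that are activated by Jagged-type and Delta-type ligands on neighbouring cells. Ligand binding allows a metalloprotease and then gamma-secretase to cut the receptor, and the freed intracellular domain joins the DNA-binding protein RBPJ to switch on genes such as Hes1 and Hey1. In the mammary gland the pathway is known for roles in luminal cell fate, and in blood vessels for roles in sprouting and arterial identity.

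RBPJ recognises the core letters GTGGGAA, and the promoters of the members were searched for it on both strands. RefSeq promoter entries on GRCr8 were matched for 8 of the 10 genes, and Dll4 and Hey1 were not among them. In the 250 bases before the annotated start, the core was found in 2 genes, Hes1 and Dll1. It was present in 5.27% of the 33469 promoter windows of that length. Both windows are printed because Hes1 is the textbook target of the pathway and Dll1 is a ligand whose levels are described below. Capitals mark the RBPJ core, which lies from 124 to 118 bases before the start in Hes1 and, on the opposite strand, from 185 to 179 bases before it in Dll1. The Hes1 window is chr11:84213046-84213295 on the minus strand, and the Dll1 window is chr1:64993275-64993524 on the minus strand.
Hes1: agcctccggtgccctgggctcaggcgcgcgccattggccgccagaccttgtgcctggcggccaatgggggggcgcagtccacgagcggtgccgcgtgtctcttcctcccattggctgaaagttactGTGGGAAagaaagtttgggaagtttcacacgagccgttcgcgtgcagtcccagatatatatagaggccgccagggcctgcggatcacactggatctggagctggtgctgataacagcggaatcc
Dll1: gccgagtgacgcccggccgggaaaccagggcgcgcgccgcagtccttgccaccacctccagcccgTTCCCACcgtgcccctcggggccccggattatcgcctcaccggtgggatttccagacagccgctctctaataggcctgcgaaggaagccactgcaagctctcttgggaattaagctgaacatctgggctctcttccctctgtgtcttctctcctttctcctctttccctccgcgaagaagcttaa
A match of letters is a description of the window and was not tested as a binding site.

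The values are log2 signals from robust multichip averaging, and a difference of 1 is a doubling. Levels are compared within a probe set and not between genes. The basal level is part of final minus basal, so a low basal level by itself raises the change and a high one lowers it. Where a tumor of opposite sign is given with its basal level, these are therefore not separate observations. Final minus basal was fitted in limma over 23281 probe sets with the tumor as a block, and p-values were adjusted over all of them by the Benjamini-Hochberg method with a threshold of 0.05. All 14 member probe sets were among those tested. In bulk tumor samples, fewer cells of a type and less RNA per cell cannot be told apart. The final array of 09I1 stood apart, with a 3' minus 5' difference of 2.61 log2 units for the beta-actin controls against 0.72 to 0.96 on the other 9 arrays. Values without 09I1 are given beside Dll1, Jag2 and Jag1, the members whose brightest probe set it moved most, and beside some other members and lists. The 11 luminal markers of the labelled mammary epithelium had basal means from 6.39 for Ehf to 12.95 for Krt19. The lower quartiles of the arrays were 4.0 to 4.29. All 11 were among the tested probe sets, which by itself does not show presence. The luminal list's summed signal, as log2, ranged from 14.96 to 15.41 in basal and from 14.71 to 15.49 in final samples, lowest in the final sample of 09I1.

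None of the 14 member probe sets passed the threshold in limma, and the background was 0% of all tested probe sets. At an unadjusted p under 0.05 the count was 0 of 14 members against 4.02% of all tested. Basal and final values overlapped in all 14, where groups that do not overlap made up 1.16% of the background. The same sign in 5 of 5 tumors was seen in 0 members, against 6.66% of all tested probe sets, and a mean difference of at least 1 log2 unit in 0 members against 0.726%. The median change was 0.063 over the members and -0.0023 over all tested probe sets. The largest mean differences were in Notch4, Dll1 and Jag2, which were lower on average in the final samples, and in Hey1, which was higher. Each of these 4 was the other way in 1 tumor.

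**Figure D1:**
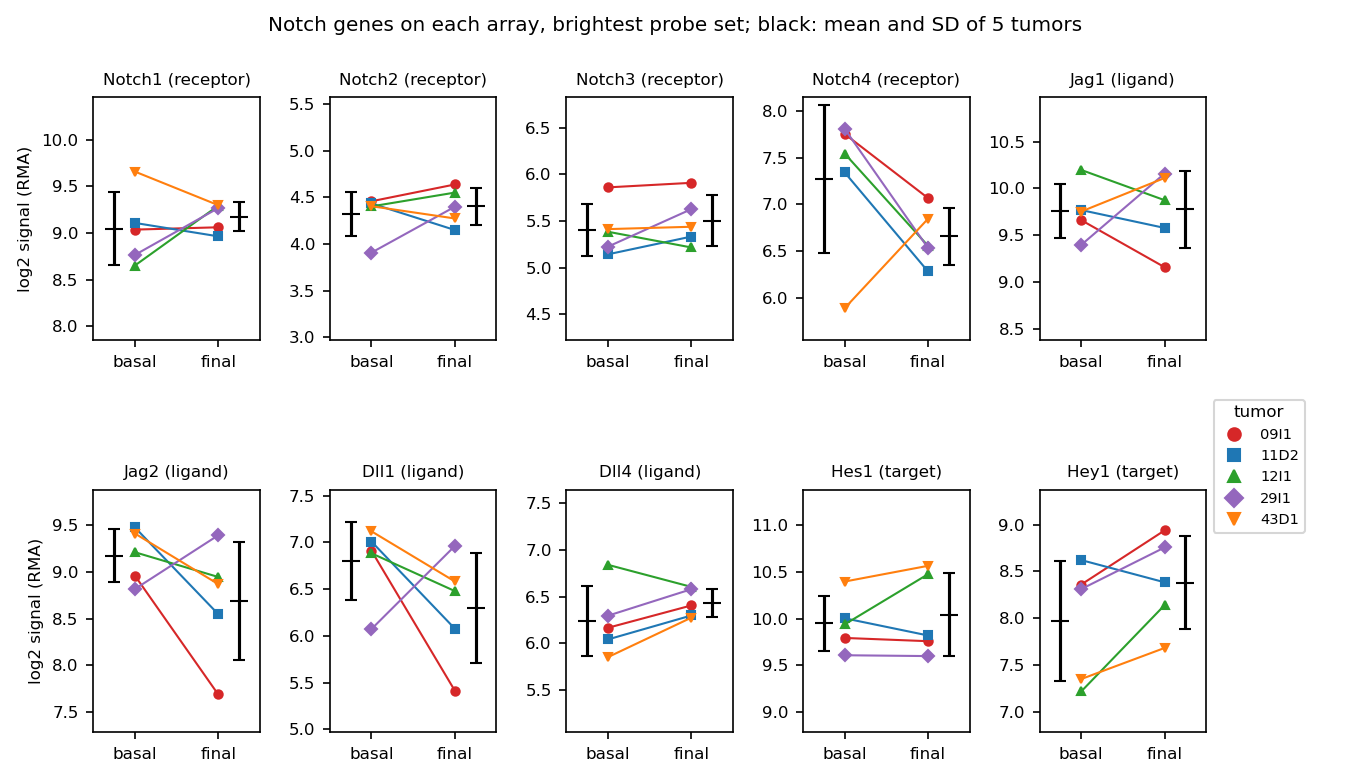
Log2 signal of the brightest probe set of each of the 10 genes (y axis, each panel spanning 2.6 log2 units) in the basal and final sample of each tumor. Lines join the 2 samples of a tumor and the black bars give the mean and SD of 5 tumors; the Notch4, Jag2 and Dll1 lines run downward in 4 of 5 tumors and the Hey1 lines upward in 4 of 5.

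Notch1, the receptor with roles in many tissues, was represented by probe set 1371491_at. In the tumor order 09I1, 11D2, 12I1, 29I1, 43D1, which is kept throughout, its basal levels were 9.04, 9.11, 8.65, 8.77 and 9.66. Its final levels were 9.06, 8.96, 9.29, 9.27 and 9.30. The final values lay within the span of the basal values, and the 5 tumors were closer to each other in the final samples. The SD was 0.39 (n = 5) in basal and 0.15 (n = 5) in final samples, a difference in spread that was not tested. The log2 change was 0.13 ± 0.18 (SE, n = 5), with limma adjusted p = 0.977 and a 95% interval from -0.30 to 0.57. The second Notch1 probe set, 1390426_at, had a change of -0.021 ± 0.17 (SE), and the signs agreed between the 2 probe sets in all 5 tumors.

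Notch2 gave a signal near the bottom of the array on every sample. Basal levels were 4.46, 4.43, 4.40, 3.91 and 4.40, and final levels were 4.64, 4.15, 4.55, 4.40 and 4.27. The lower quartile of the arrays was 4.0 to 4.29, so the size of any Notch2 difference is uncertain. The change was 0.081 ± 0.14 (SE, n = 5; limma adjusted p = 0.977), and it was -0.022 without 29I1, whose basal value was the lowest of the 10.

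Notch3, a receptor known from pericytes and vascular smooth muscle, had the smallest SD of change among the members. Basal levels were 5.86, 5.14, 5.38, 5.23 and 5.41, and final levels were 5.91, 5.33, 5.22, 5.63 and 5.44. In both groups 09I1 was the highest tumor. The change was 0.099 ± 0.14 (SE, n = 5; limma adjusted p = 0.977), and the SD of the 5 changes was 0.21, against a median of 0.40 over all tested probe sets. The pericyte and smooth muscle marker list had a median change of -0.049 over its 11 tested genes, and of 0.086 without 09I1.

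Notch4, a receptor of endothelial cells whose gene is also a known insertion site of mouse mammary tumor virus, had the largest mean difference of the members. On its brightest probe set, 1389847_at, basal levels were 7.75, 7.34, 7.54, 7.81 and 5.89. Final levels were 7.07, 6.28, 6.56, 6.54 and 6.85. The 4 tumors that started at 7.34 or above were all lower in the final sample, by 0.69 to 1.27, while 43D1 started lowest of the 10 and was higher by 0.96. Since the basal level enters each change, a dependence of the change on the start cannot be read from this. The mean went from 7.27 ± 0.79 (SD, n = 5) to 6.66 ± 0.30 (SD, n = 5). The change of -0.61 ± 0.33 (SE) corresponds to a basal level 1.53-fold the final one, with limma adjusted p = 0.977 and a 95% interval from -1.39 to 0.17. Without 43D1, the tumor of opposite sign, the change was -1.0, and without 09I1 it was -0.59. Since 43D1 was singled out by its own change, no p is given for the other 4. A mean difference of at least 0.5 log2 units was seen in 1 of 14 members, this one, and in 5.58% of all tested probe sets.

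The 3 Notch4 probe sets did not give one answer. Probe set 1375570_at had changes of 0.13, -0.76, -1.32, -0.34 and 0.90, with a mean of -0.28 ± 0.31 (SE). It shared the sign of the brightest one in 4 of the 5 tumors, 09I1 being the exception. Probe set 1378533_at had changes between -0.21 and 0.36 and a mean of 0.045 ± 0.13 (SE). Its sign was opposite to that of the brightest probe set in 29I1.

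Marker lists were read beside Notch4 in each tumor. The endothelial list, with 13 of 15 genes tested, had median changes of 0.022, 0.25, 0.087, -0.67 and 0.13. Its summed signal, as log2, ranged from 10.93 to 11.63 in basal and from 11.05 to 11.22 in final samples. The endothelial median was thus of opposite sign to Notch4 in 09I1, 11D2 and 12I1, though it was only 0.022 in 09I1 and 0.087 in 12I1. The macrophage list, with 11 of 11 genes tested, had median changes of -0.068, 0.84, -0.77, -1.38 and 1.18. Its summed signal ranged from 12.78 to 14.82 in basal and from 13.27 to 14.13 in final samples, with the lowest basal value in 43D1 and the highest in 29I1, as for Notch4. In 43D1 all 11 macrophage genes were higher, and in 11D2 the list and Notch4 went opposite ways. Over the 10 arrays, Pearson's r of Notch4 was 0.41 with the endothelial list and 0.52 with the macrophage list. Over the 8 arrays without 09I1, these values were 0.53 and 0.68. The part of these cell types in the Notch4 values was not tested.

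**Figure D2:**
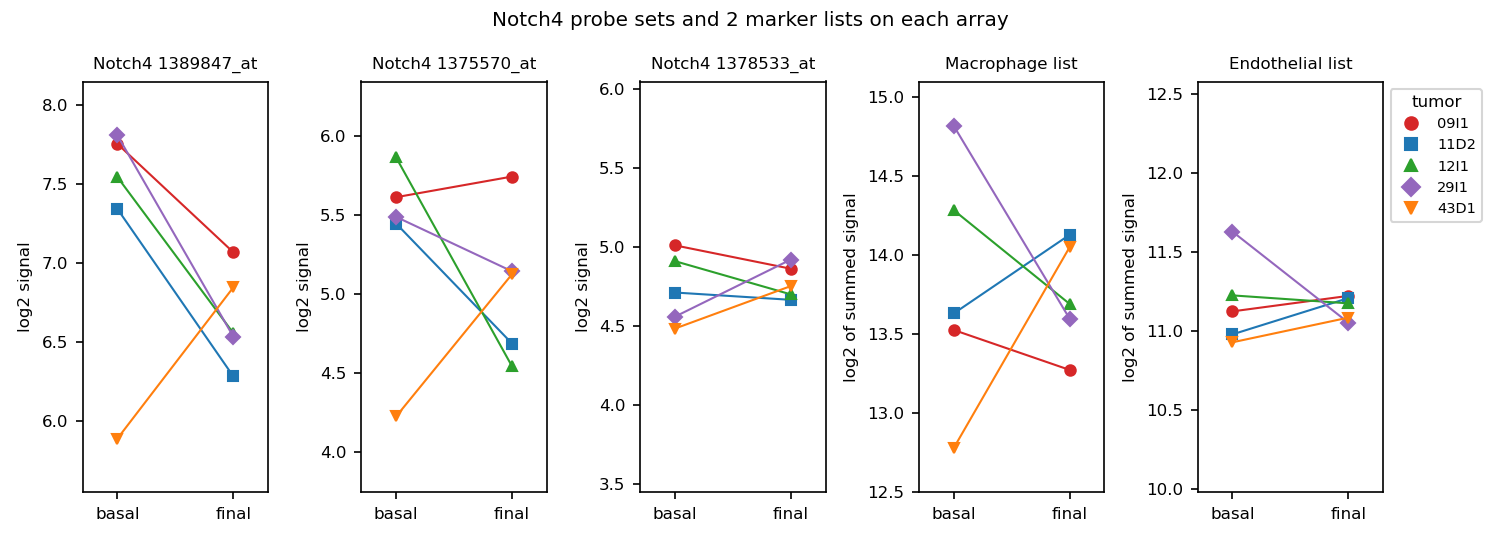
Log2 signal of the 3 Notch4 probe sets, and log2 of the summed signal of the macrophage and endothelial marker lists (y axes, each spanning 2.6 log2 units), in the basal and final sample of each tumor. In 43D1 the first 2 probe sets and the macrophage list run upward, while the endothelial list runs downward in 29I1 and stays within 0.23 log2 units in the other tumors.

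Jag1, a Jagged-type ligand, had basal levels of 9.66, 9.77, 10.20, 9.40 and 9.75. Final levels were 9.16, 9.58, 9.87, 10.16 and 10.11. It was lower in 3 tumors and higher in 29I1 and 43D1, which left a mean change of 0.021 ± 0.21 (SE, n = 5; limma adjusted p = 0.995). The mean turned to -0.16 without 29I1 and to -0.064 without 43D1, and it was 0.15 without 09I1.

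Jag2, the other Jagged-type ligand, had basal levels of 8.96, 9.48, 9.21, 8.82 and 9.41 and final levels of 7.69, 8.55, 8.95, 9.39 and 8.87. It was lower in 4 tumors, by 0.26 to 1.27, and higher by 0.58 in 29I1, the tumor with the lowest basal value. The mean went from 9.17 ± 0.28 (SD, n = 5) to 8.69 ± 0.64 (SD, n = 5), a change of -0.49 ± 0.26 (SE; limma adjusted p = 0.977; 95% interval from -1.11 to 0.14). Without 09I1 the change was -0.29, and without 29I1, the tumor of opposite sign, it was -0.75.

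Dll1, a Delta-type ligand, had basal levels of 6.91, 7.01, 6.88, 6.07 and 7.12 and final levels of 5.41, 6.08, 6.48, 6.96 and 6.58. As with Jag2, 29I1 had the lowest basal and the highest final level. The mean went from 6.80 ± 0.42 (SD, n = 5) to 6.30 ± 0.59 (SD, n = 5), a change of -0.50 ± 0.33 (SE; limma adjusted p = 0.977; 95% interval from -1.26 to 0.27). The change was -0.25 without 09I1 and -0.84 without 29I1, again the tumor of opposite sign. Jag2, Dll1 and the brightest Notch4 probe set made up the 3 of 14 members that were lower in at least 4 of 5 tumors, against 18.0% of all tested probe sets.

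Jag2 and Dll1 had the same sign in every tumor. Their changes were -1.27 and -1.50 in 09I1, -0.93 and -0.93 in 11D2, -0.26 and -0.40 in 12I1, 0.58 and 0.89 in 29I1, and -0.54 and -0.54 in 43D1. Across the 10 arrays, which are pairs from 5 tumors, Pearson's r between them was 0.94, and 0.94 over the 8 arrays without 09I1. Of the 45 pairs among the 10 genes this was the highest r. The next were 0.74 for Jag1 with Dll1 and 0.71 for Jag1 with Jag2, which were 0.60 and 0.42 without 09I1.

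The basal and myoepithelial marker list was read beside these ligands, with 10 of 10 genes tested. Its median changes were -0.62, -0.54, -0.14, 0.70 and -0.44, so it had the sign of Jag2 and Dll1 in every tumor. The counts of its 10 genes that were higher were 3, 1, 5, 9 and 1, so in 12I1 the list was evenly split. Tp63, the p63 regulator of basal epithelium, had changes of -1.89, -0.81, 0.050, 1.03 and -0.40. Krt14, a basal keratin, had changes of -0.50, -0.53, -0.45, 0.30 and -1.04. Other genes of the list went another way. Oxtr, at a basal mean of 4.48, had changes of -1.46, 0.99, 1.12, -0.76 and 0.22, opposite in sign to both ligands in every tumor except 09I1. In 09I1, where both ligands fell most, the 3 genes that were higher were Krt5, Krt17 and Itgb4, by 0.10, 0.062 and 0.14. The list's summed signal, as log2, ranged from 13.96 to 14.55 in basal and from 13.82 to 14.61 in final samples. The fibroblast list, with 11 of 11 genes tested, had median changes of -0.62, 0.99, 0.70, -1.38 and 0.10, which is the sign of both ligands in 09I1 alone. The adipocyte list, with 7 of 9 genes tested, had medians of 1.08, 2.26, -0.087, -2.12 and 0.93, opposite in sign to both ligands in every tumor except 12I1. Its summed signal ranged from 9.74 to 11.66 in basal and from 9.67 to 11.99 in final samples. Over the 8 arrays without 09I1, r with the adipocyte list was -0.86 for Jag2 and -0.84 for Dll1, and r with the basal epithelial list was 0.74 and 0.67. The adipocyte list did not stand alone, as r was -0.88 and -0.88 with the fibroblast list. It was -0.70 and -0.86 with the endothelial list and -0.67 and -0.76 with the macrophage list. Over all 10 arrays, r was -0.62 and -0.73 with the adipocyte list, -0.22 and -0.39 with the fibroblast list, and 0.70 and 0.75 with the basal epithelial list. The part of these cell types in the ligand values was not tested.

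**Figure D3:**
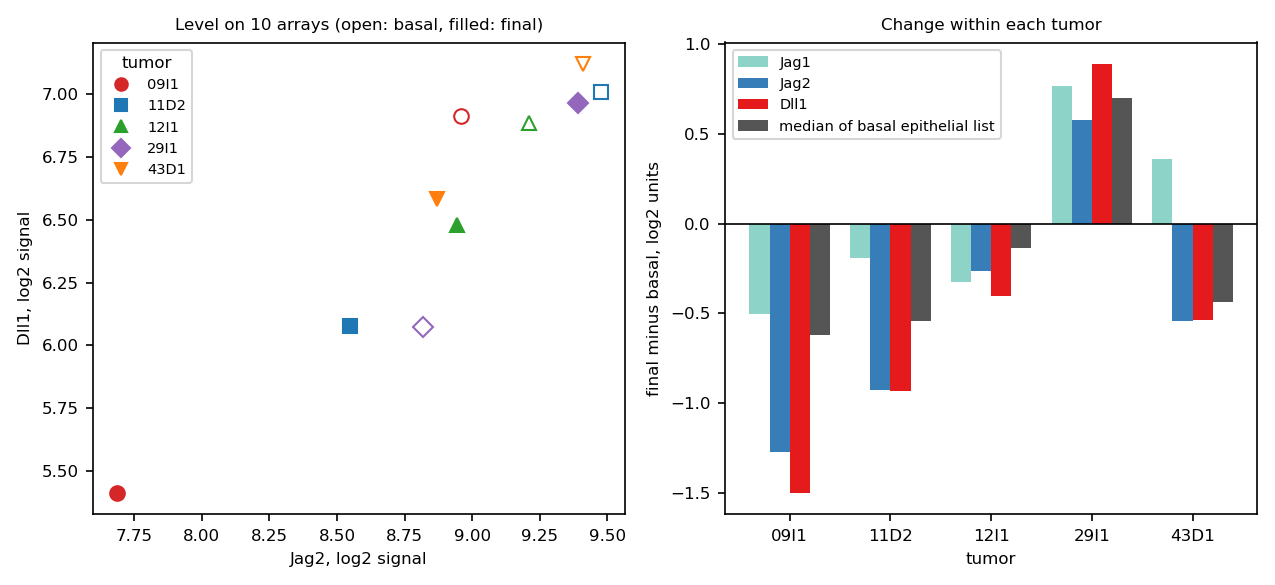
Left, Dll1 against Jag2 log2 signal on the 10 arrays, with open symbols for basal and filled symbols for final samples; right, final minus basal in log2 units for Jag1, Jag2, Dll1 and the median of the basal epithelial marker list in each tumor. Jag2, Dll1 and the list median are below 0 in 4 tumors and above 0 in 29I1.

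Dll4, a Delta-type ligand of sprouting endothelium, was represented by 1379790_at. Basal levels were 6.17, 6.04, 6.84, 6.30 and 5.85 and final levels were 6.40, 6.30, 6.60, 6.58 and 6.27. It was higher in 4 tumors by 0.24 to 0.42 and lower by 0.24 in 12I1, which had the highest basal value. The change was 0.19 ± 0.16 (SE, n = 5; limma adjusted p = 0.977; 95% interval from -0.18 to 0.57). The lymphocyte list, with 9 of 11 genes tested, had median changes of 0.92, 0.87, -0.048, -0.73 and 1.12, the sign of Dll4 in every tumor except 29I1. Its summed signal ranged from 8.83 to 11.72 in basal and from 10.18 to 11.33 in final samples. Over the 10 arrays, r of Dll4 was 0.71 with the lymphocyte list and 0.21 with the endothelial list, and the part of these cell types was not tested. The other Dll4 probe set, 1394367_at, had a change of 0.23 ± 0.17 (SE) and was positive in 3 tumors. In 09I1, 11D2 and 29I1 Dll4 was higher where the brightest Notch4 probe set was lower, and in the other 2 tumors both had the same sign.

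Hes1, a basic helix-loop-helix repressor and a direct RBPJ target, differed more between tumors than between samplings. Basal levels were 9.79, 10.005, 9.94, 9.61 and 10.40, and final levels were 9.76, 9.82, 10.48, 9.60 and 10.57. In both groups 29I1 was lowest and 43D1 highest, and 09I1 and 29I1 differed between samplings by -0.035 and -0.0090. The largest difference was 0.54 in 12I1. The change was 0.096 ± 0.14 (SE, n = 5; limma adjusted p = 0.977), with a 95% interval from -0.24 to 0.43, and it was -0.015 without 12I1.

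Hey1, a related repressor and target, had basal levels of 8.36, 8.62, 7.22, 8.31 and 7.35 and final levels of 8.94, 8.38, 8.14, 8.76 and 7.68. It was higher in 4 tumors, by 0.33 to 0.92, and lower by 0.24 in 11D2, the tumor with the highest basal value. The mean went from 7.97 ± 0.64 (SD, n = 5) to 8.38 ± 0.50 (SD, n = 5). The change of 0.41 ± 0.19 (SE) is 1.33-fold and had the smallest unadjusted p of the members, 0.0671, with limma adjusted p = 0.977 and a 95% interval from -0.037 to 0.86. Without 11D2, the tumor of opposite sign, it was 0.57, and without 09I1 it was 0.37. With Notch3 and Dll4, Hey1 was 1 of the 3 of 14 members higher in at least 4 of 5 tumors, against 20.6% of all tested probe sets. By level the 2 targets ordered the tumors differently, since among the final samples Hes1 was highest and Hey1 lowest in 43D1. By change, both had their highest value in 12I1 and their lowest in 11D2, and their signs differed in 09I1 and 29I1, where Hes1 was close to 0.

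**Figure D4:**
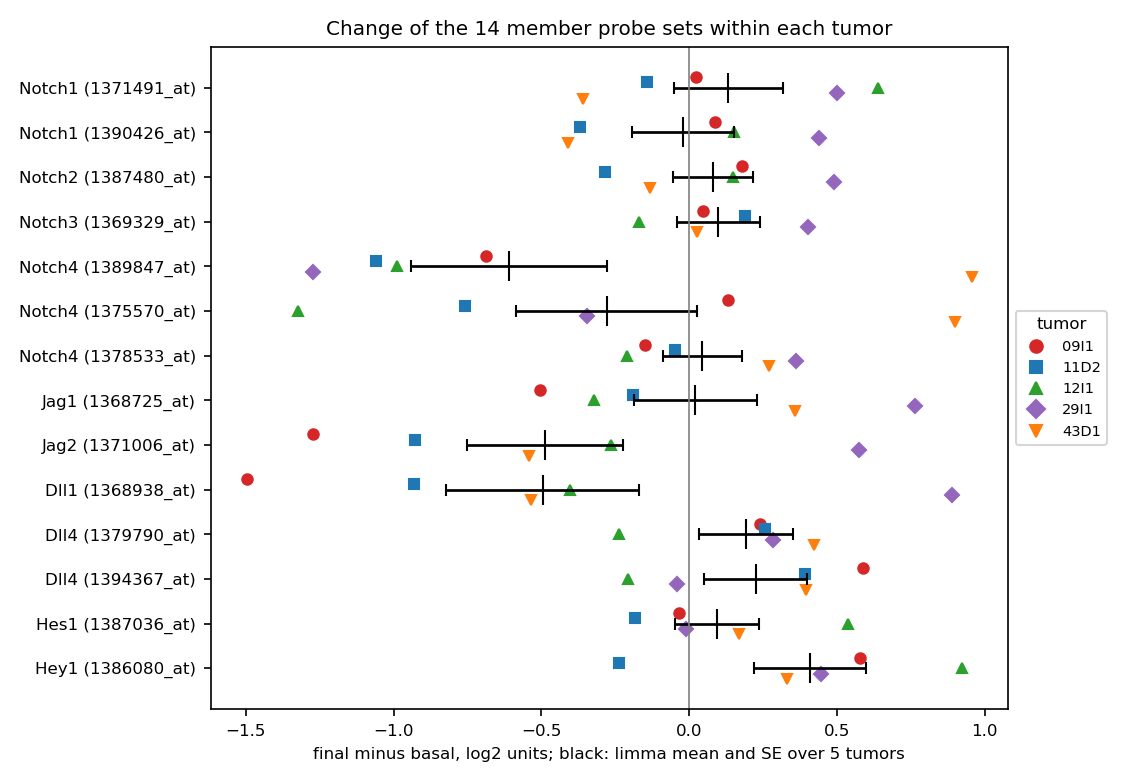
Final minus basal in log2 units (x axis) for each of the 14 member probe sets (rows) in each of the 5 tumors (symbols), with the limma mean and SE in black. No row has all 5 symbols on one side of 0.

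The tumors differed in how the members moved as a group. In 29I1, 10 of the 14 probe sets were higher, with a median change of 0.42 against 0.016 over all tested probe sets, and 51.6% of those were higher. In 11D2, 11 of 14 were lower, with a median of -0.21 against -0.024 for all, of which 45.9% were higher. In 09I1, 12I1 and 43D1, 8, 5 and 9 of 14 were higher, against 52.2%, 54.9% and 49.2% of all tested, and the member medians were 0.037, -0.21 and 0.22. Marker lists differed in these tumors too. In 29I1, 10 of 11 luminal and 9 of 10 basal epithelial genes were higher, against 0 of 11 fibroblast, 0 of 7 adipocyte and 1 of 11 macrophage genes. In 11D2, the skeletal muscle list had a median change of 4.73, the adipocyte list one of 2.26, and all 11 fibroblast genes were higher. There, 8 of 11 luminal genes were also higher, but only 1 of 10 basal epithelial genes was. The part of cell makeup in the members' medians was not tested. Differences of at least 1 log2 unit in either direction were seen in 2 members in 09I1 (Jag2 and Dll1), where the background was 21.5%. They were seen in 1 member each in 11D2 (Notch4, background 4.27%), 12I1 (Notch4 on 1375570_at, background 3.72%) and 29I1 (Notch4, background 6.05%). In 43D1 there was no such member, against a background of 7.13%.

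The rest of the pathway was read from 7 lists with 59 genes tested of 74 listed. No gene passed the threshold in limma, as none of the 12255 genes tested did. At an unadjusted p under 0.05 there was 1 gene, Neurl1b, of 59, against 2.88% of all genes tested. The count was 0 in a fit without the tumor block and 4 with array weights. The median change was -0.029 over these genes and 0.014 over the 12255 genes tested. Among other ligands and ligand-like proteins, 5 of 6 were tested. Mfap5, a microfibril protein, had a change of 0.71 ± 0.50 (SE), Dlk1 one of -0.24 and Dll3 one of 0.17, and the last 2 were at -0.081 and 0.082 without 09I1. By tumor Mfap5 was 0.70, 1.41, 1.23, -1.73 and 1.97, which is the sign of the fibroblast list in every tumor except 09I1.

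Of the enzymes that glycosylate the receptor's EGF repeats, 5 of 6 were tested, with a median change of -0.014. Eogt, a GlcNAc transferase, had a change of -0.26 ± 0.14 (SE), the Fringe gene Rfng one of 0.18 and Lfng, also a Fringe gene, one of -0.029. Rfng was at 1.11 in 09I1 and -0.051 without it. Of the cleavage machinery, 7 of 9 were tested, with a median of 0.057, and of 0.16 without 09I1. The gamma-secretase subunit genes Psenen and Aph1a had changes of 0.26 ± 0.14 (SE) and 0.23 ± 0.14 (SE). Psenen was above 0 in each tumor, by 0.0010 in 11D2 and by 0.75 in 09I1, and its mean was 0.13 without 09I1. Of all tested probe sets, 6.66% had the same sign in 5 of 5 tumors. Adam10, the metalloprotease of the first cut, had changes of -3.83, -0.24, 0.19, 0.24 and 0.63, with a mean of -0.60 over 5 and 0.20 without 09I1.

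Regulators of endocytosis and ubiquitination, with 12 of 15 tested, had a median of 0.0071, and of 0.094 without 09I1. Neurl1b, a ligand ubiquitin ligase, had a change of 0.26 ± 0.11 (SE; limma adjusted p = 0.977, and unadjusted p = 0.0481) from a basal mean of 4.09, within the lower quartiles of the arrays. Fbxw7, which targets the cleaved receptor for degradation, had one of -0.47 ± 0.36 (SE). By tumor Fbxw7 was -0.59, -1.31, -1.02, -0.64 and 1.20, the same signs as the brightest Notch4 probe set. Dtx2, a Deltex gene, had a change of 0.21, and 0.10 without 09I1.

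In the nuclear activation complex, 7 of 9 were tested, with a median of -0.0097, and of 0.095 without 09I1. Rbpj, the DNA-binding partner, had a change of -0.14 ± 0.20 (SE) over the 5 tumors and 0.048 without 09I1. The coactivator gene Maml2 had a change of 0.27, and 0.34 without 09I1. Maml1, also a coactivator gene, had one of -0.11, which turned to 0.095 without 09I1. Of the co-repressors, 12 of 13 were tested, and 9 had a mean below 0, where 47.3% of all genes tested did, with a median of -0.17, and of -0.065 without 09I1. Tle5, Tle1 and Tle4 of the Groucho family had changes of 0.42, -0.34 and -0.31, and of 0.19, -0.31 and -0.13 without 09I1. By tumor Tle5 was 1.33, 0.23, 0.21, 0.15 and 0.16, all above 0, while Hdac2 and Ncor1 of the same list were below 0 in each tumor. The same sign in 5 of 5 tumors was seen in 6.66% of all tested probe sets.

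Of the other reported targets, 11 were tested of 16 listed, with a median of -0.11, and of -0.032 without 09I1. Hey2, a relative of Hey1, had a change of -0.49 ± 0.34 (SE), with -0.64, -1.87, -0.34, 0.78 and -0.36 by tumor. Ccnd1, cyclin D1, had one of -0.34, and -0.035 without 09I1, where it was at -1.57. Nrp1, a VEGF co-receptor, had a change of -0.26, and -0.15 without 09I1. In 29I1, 10 of the 11 were higher, with a median of 0.41, and in 09I1, 11D2 and 12I1 the medians were -0.24, -0.15 and -0.26.

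**Figure D5:**
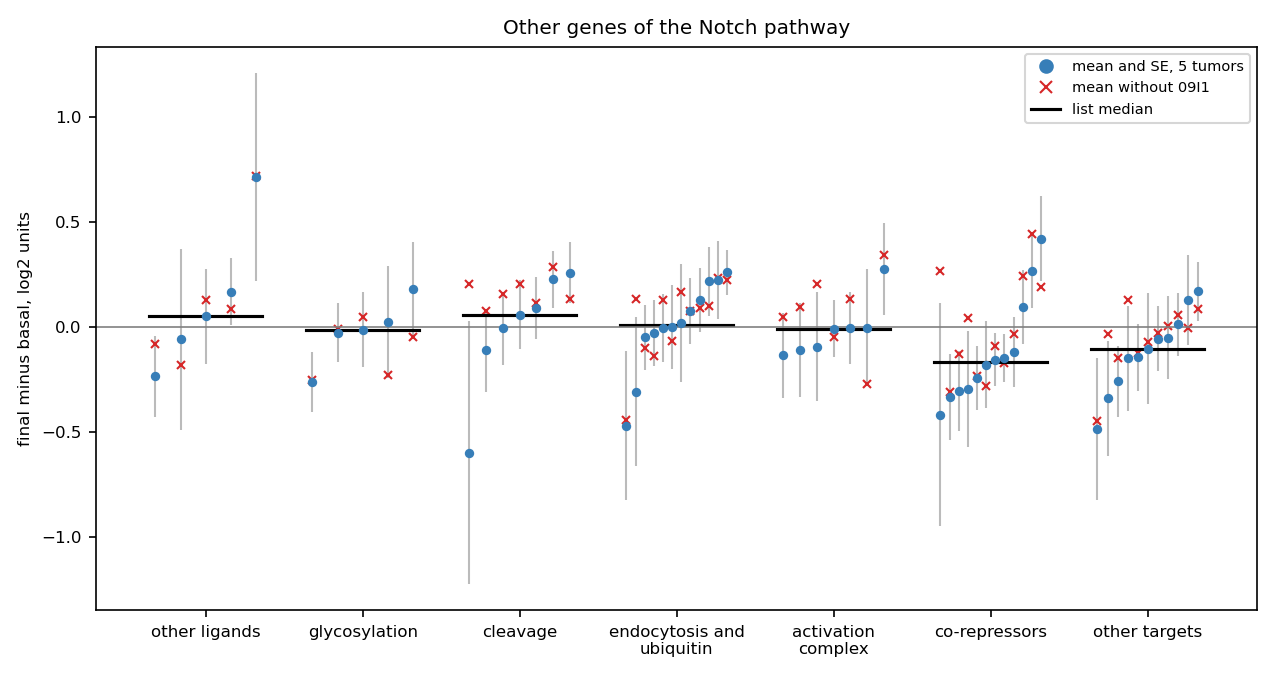
Final minus basal in log2 units (y axis) for the 59 tested genes of the 7 other Notch pathway lists, with blue points for the mean of 5 tumors, grey bars for the limma SE, red crosses for the mean without 09I1 and black lines for the list median. List medians lie between -0.17 for the co-repressors and 0.057 for the cleavage genes, and Adam10 has the widest bar.

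For each member, the 3 genes with the highest Pearson r of level over the 10 arrays were listed among 12254 other genes, as a description without a test, since so many genes give high values over so few arrays. For Notch4 they were Fcgr3a, an Fc receptor of myeloid and NK cells (r = 0.93), Trmt9b (0.89) and Lilrb4, a myeloid inhibitory receptor (0.87), with 0.95, 0.86 and 0.93 without 09I1. For Jag2 they were Jam3 (0.94), Dll1 (0.94) and Tp63 (0.94), with 0.81, 0.94 and 0.89 without 09I1. For Dll1 they were Cbx6 (0.95), Jag2 (0.94) and Nt5e (0.94), with 0.89, 0.94 and 0.89 without it. Each of the ligands Jag2 and Dll1 was thus among the 3 genes closest to the other over the 10 arrays. Without 09I1, Dll1 was at rank 4 for Jag2, and Jag2 was at rank 2 for Dll1.

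For Dll4 the closest genes were Dhrs9 (0.95), Chl1 (0.95) and Nkg7, a cytotoxic lymphocyte gene (0.92), and for Jag1 they were Emc1 (0.95), Crim1 (0.93) and Bahd1 (0.93). For Notch1 they were Ano10 (0.94), Pigh (0.93) and Nbas (0.92), and for Notch2 Mycbpap (0.91), Eya2 (0.90) and Ado (0.89). Notch3 was closest to Hmga2 (0.93), Slc7a8 (0.93) and Creb3l3 (0.93), which were 0.87, 0.71 and 0.74 without 09I1. Hes1 was closest to Pcdhb12 (0.90), Pip4p2 (0.89) and Abcc8 (0.89), and Hey1 to Cnp (0.96), Dlx5 (0.94) and Ngef (0.94). Apart from Jag2 and Dll1, no member was among the 3 genes closest to another.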

How the data were processed

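Total RNA from 10 tumor samples was hybridised to Affymetrix rat genome arrays. The deposited values are log2 signals that the authors made by robust multichip averaging, per the submitters' processing notes. The series' design text names a paired test in GeneSpring GX. The table still holds 57 control probe sets. Symbols come from the platform annotation, and all 10 members matched the RefSeq table by Entrez identifier.

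Controls, and after them the 25% of probe sets with the smallest mean signal, were dropped, which left 23281. The model was limma (version 3.58.1, R 4.3.3) with tumor as fixed block and an intensity trend. The brightest probe set stood for a gene. The pairing comes from the tumor codes in the labels, and a fit with tumor as a random block estimated a correlation of 0.0017. Members, lists and motifs were chosen with earlier results of these data known. From each pathway list the 3 genes with the smallest p are named, with Hdac2 and Ncor1 added for their signs, and for each member the 3 genes with the highest Pearson r. Tp63, Krt14, Oxtr, Krt5, Krt17, Itgb4, Acta2, Mylk and Pdgfrb were singled out after their values were seen. The fit was tested on simulated arrays, and 14 alternatives were tried, 5 of which leave out a tumor each. No detection calls were used, the number of arrays limits the precision, and p-values measure the spread between tumors. Figures were drawn with matplotlib 3.10.9.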

Additional observations from a re-analysis of the deposited data

Results flagged for a closer look

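Of the 42 sets of 5 values (basal level, final level and change of each of the 14 member probe sets), 6 held 1 value well apart from the remaining ones. By chance this is met in about 1 in 20 independent sets, or 2.1 of 42. These sets are not independent, since each change is made from the basal and final levels and some genes have several probe sets. Several of the 6 come from the same low basal Notch4 level in 43D1. The 6 can therefore not be read as an excess over 2.1. In 43D1, basal Notch4 was 5.89 on probe set 1389847_at against 7.34 to 7.81 in the other tumors, and 4.22 on 1375570_at against 5.44 to 5.86. The change of 1389847_at in 43D1 was 0.96, against -1.27 to -0.69 in the others. In 29I1, basal Dll1 was 6.07 against 6.88 to 7.12, and basal Notch2 was 3.91 against 4.40 to 4.46. In 12I1, the change of Dll4 on 1379790_at was -0.24, against 0.24 to 0.42 in the other 4 tumors.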

How the results depend on the processing

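The number of member probe sets past the threshold was 0 under all 14 alternatives, as was the number over all probe sets. Without a replicate block and with a random one, the count of members and of all probe sets past the threshold was likewise 0. Of the 10 genes, 7 kept the direction of their change under every alternative run for them, but not its size. Notch1 ranged from 0.0057 without 12I1 to 0.26 without 43D1, Notch3 from 0.024 without 29I1 to 0.17 without 12I1, and Dll4 from 0.14 without 43D1 to 0.30 without 12I1. Hey1 was at 0.19 with array weights, and Notch4 at -0.28 as a mean over its probe sets. Notch2 was at -0.048 with array weights and -0.022 without 29I1, with a range of -0.022 to 0.17 when 1 tumor was left out. Jag1 was at -0.16 without 29I1 and -0.064 without 43D1, with a range of -0.16 to 0.15. Hes1 was at -0.015 without 12I1, with a range of -0.015 to 0.17. An unadjusted p under 0.05 was reached by Hey1 with cyclic loess and without 11D2, by Jag2 with array weights and without 29I1, by Dll1 without 29I1 and by Notch4 without 43D1. Each tumor left out there was the one of opposite sign, so these p-values depend on that choice. The count of other pathway genes at that p ranged from 0 to 4. Over all probe sets the count at an unadjusted p under 0.05 was 935, against 2440 with array weights, 1868 without 09I1, 608 without 11D2 and 465 with the stricter filter, under which fewer probe sets were tested. The cause of these differences was not tested. Only RMA values, without detection calls, were at hand, so signals close to background, as for Notch2, cannot be told from it.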

Other observations

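Hes1 is known to repress its own gene through N-boxes, with the letters CACNAG. Searched on both strands, the Hes1 window held 4 matches, none of which overlapped the RBPJ core. The window of Notch1 also held 4, of which 2 overlapped each other, that of Notch4 held 2 and that of Notch3 held 1. Of all promoter windows of 250 bases, 37.2% held at least 1 match and 0.197% held 4 or more.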
